A study of Mus musculus with 6 samples.

Results

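The genes described here are the vascular endothelial growth factor (VEGF) ligands Vegfa, Vegfb, Vegfc and Pgf, the receptors Flt1, Kdr and Flt4, and Ccbe1, which takes part in the processing of VEGF-C. They are 8 of the 19938 genes that could be measured with a probe set of their own, and each was read from the brightest probe set whose only gene symbol was that gene. Each of the 8 genes had exactly 1 such probe set, so the isoforms of a gene, such as soluble and membrane-bound Flt1, were not separated. This gene family was picked with differences between AGR and NME cells on these same arrays already known. Its values for that comparison are therefore a description, and no p-value is given for the 8 genes.

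Gene expression was read on Affymetrix Mouse Gene 1.0 ST microarrays, with 3 arrays of AGR cells and 3 of NME cells. AGR cells are AG1478-resistant cells derived from 1 colony that grew out of NME cells in a basement membrane culture containing the EGFR kinase inhibitor AG1478, and they were expanded on plastic before RNA was taken. NME cells are the parental, drug-sensitive line, made from NMuMG mouse mammary gland cells by stable overexpression of EGFR, which both lines carry. Both lines were grown in serum and insulin, and resistant lines were kept without the drug, so the comparison is of 2 established lines and not of cells with and without inhibitor. Because AGR is a single colony, resistance and any other property of that colony cannot be told apart, and no source says that the arrays of a line came from separate cultures, so the error behind each p-value is the variation among the arrays hybridized, which may be technical.

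VEGF ligands are secreted dimers that bind receptor tyrosine kinases, best known from the cells that line blood and lymph vessels. VEGF-A, VEGF-B and PlGF, the product of Pgf, bind VEGFR1, which Flt1 encodes, and VEGF-A also signals through VEGFR2, the product of Kdr. VEGF-C acts mainly through VEGFR3, the product of Flt4, and drives the growth of lymphatic vessels. VEGF-C is made as a precursor, and the secreted matrix protein CCBE1 helps the protease ADAMTS3 to cut it into its active form. Neuropilins are co-receptors for several VEGFs.

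The deposited values are intensities on a linear scale, and differences are given on the log2 scale as AGR minus NME. Median intensities of the 6 arrays lay between 190.4 and 200.8, and the median SD of a gene over 3 arrays was 0.07 in either line. A gene was called when its adjusted p from limma, a linear model with moderated variances, was under 0.05 after Benjamini-Hochberg adjustment over all 19938 genes. There are no detection calls. As a rough guide chosen after the values were seen, the 1015 measured olfactory receptor genes, which are not known to be active in mammary cells, had a median log2 intensity of 5.27 in AGR and 5.31 in NME cells and a 95th percentile of 7.23 in AGR and 7.28 in NME cells. Exactly equal intensities on at least 2 arrays occurred in 27.2% of the 35557 probe sets, and the SD of such a probe set may be too small.

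In AGR cells Ccbe1, Flt4, Vegfc and Pgf were higher and Flt1 and Vegfa were lower than in NME cells, while Vegfb and Kdr were not called. Of the 8 genes, 4 were called higher and 2 lower, where 12.6% of all genes were called higher, 11.6% lower and 24.2% in either direction. Ccbe1 and Flt4 had a fold change (FC) above 2, which 1.50% of all genes reached with a call in that direction. AGR and NME arrays did not overlap for 7 of the 8 genes, the exception being Kdr, against 36.4% of all genes. As the genes were chosen on this comparison, nothing is read from these shares.

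**Figure D1:**
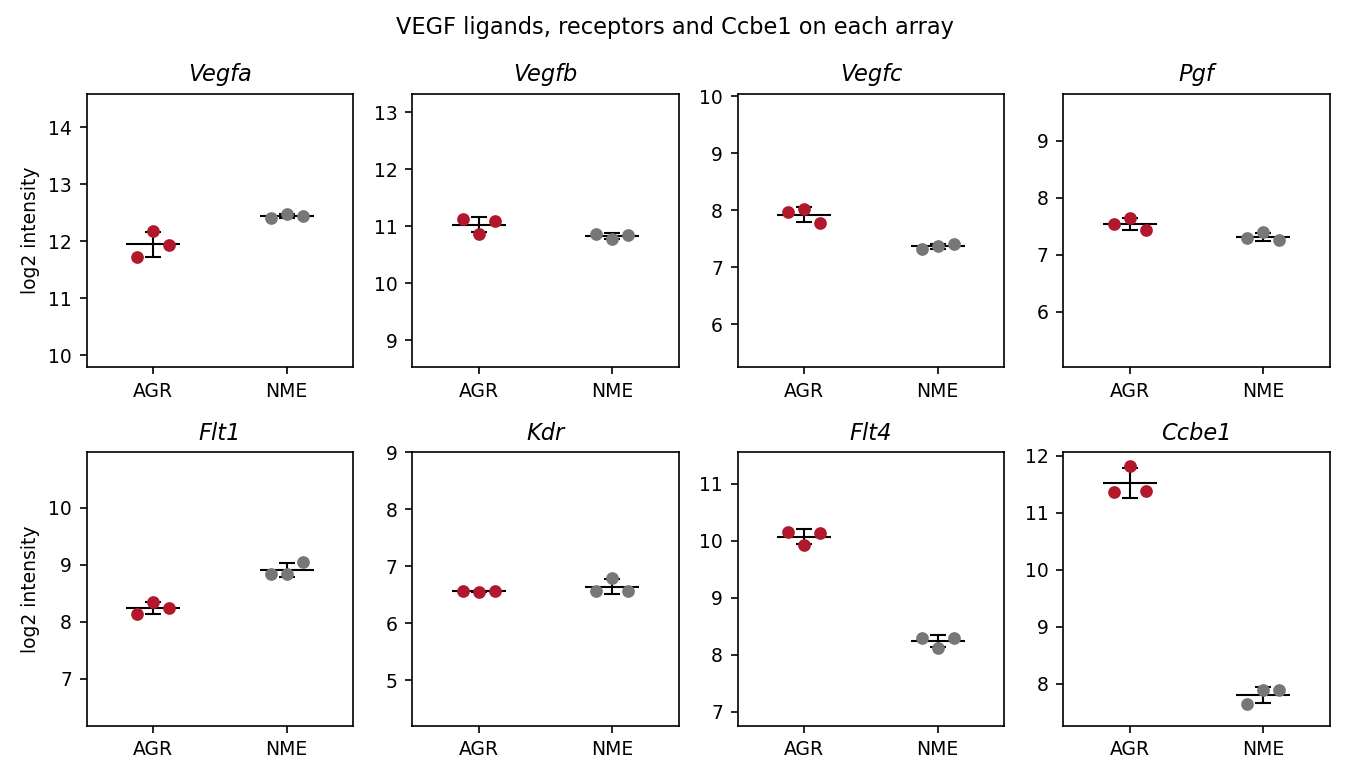
Log2 intensity (y axis, each panel spanning the same number of log2 units) of the 8 genes on each of the 3 AGR arrays (red) and the 3 NME arrays (gray), with the mean as a black bar and the SD as whiskers. Ccbe1 and Flt4 are clearly separated, at means of 11.53 and 10.08 in AGR cells against 7.81 and 8.24 in NME cells, and the points of Kdr overlap.

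Ccbe1 had by far the largest difference of the family. Its intensities were 2644, 3644 and 2669 on the AGR arrays, against 200.6, 237.4 and 237.4 on the NME arrays. Every AGR array lay far above every NME array, with AGR replicate 2 the highest. The mean log2 intensity was 11.53 ± 0.26 in AGR cells and 7.81 ± 0.14 in NME cells (SD, n = 3 each), a log2 FC of 3.72 (SE 0.14), or 13.2-fold. Ccbe1 ranked 8 of 19938 genes by increase. The NME mean of 7.81 compares with 7.28, the 95th percentile of the olfactory receptor genes in NME cells. The intensities of NME replicates 2 and 3 were exactly equal. In RNA from whole cultures, fewer cells with a transcript and less of it per cell cannot be told apart, here and for the genes that follow.

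The receptor gene Flt4 was also higher in AGR cells. It had intensities of 1140, 973.1 and 1132 on the AGR arrays, against 315.6, 279.3 and 314.9 on the NME arrays. In both lines replicate 2 was the lowest array, and the lines did not overlap. The log2 means were 10.08 ± 0.13 in AGR cells and 8.24 ± 0.10 in NME cells (SD, n = 3 each), a log2 FC of 1.83 (SE 0.08), or 3.56-fold, which ranked 69 of 19938 genes by increase.

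Vegfc, which encodes the ligand that CCBE1 helps to activate and that Flt4 binds, was called higher with a smaller difference. Its intensities were 252.7, 259.8 and 220.1 in AGR cells, against 160.9, 166.7 and 170.5 in NME cells. The 3 AGR values stood above the 3 NME values, and AGR replicate 3 was nearest to them. The log2 FC was 0.55 (SE 0.07), or 1.47-fold, from log2 means of 7.93 ± 0.13 in AGR cells and 7.37 ± 0.04 in NME cells (SD, n = 3 each). The NME mean was close to the 95th percentile of the olfactory receptor genes, 7.28.

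Over the 15 alternative settings tried for each of these genes, the log2 FC stayed between 3.57 and 3.80 for Ccbe1, between 1.78 and 1.91 for Flt4 and between 0.51 and 0.63 for Vegfc. The calls of these 3 genes were kept in all of them.

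The processing of VEGF-C and its relative VEGF-D involves further secreted and intracellular proteases. This list and those that follow were drawn up with earlier results of these data known. Their counts, medians and p-values are a description, and nothing is read from the shares given beside them. Of 8 measured genes for VEGF-C processing and VEGF-D, 3 were called higher and 0 lower in AGR cells by limma (3 higher and 0 lower at an unadjusted p under 0.05, and 2 called by the methods' t-test after Benjamini-Hochberg adjustment). Over all genes 12.6% were called higher and 11.6% lower. The median log2 FC was 0.03, against -0.02 over all genes. Adamts3, the protease that CCBE1 assists, had log2 means of 8.72 ± 0.01 in AGR cells and 8.80 ± 0.08 in NME cells (SD, n = 3 each), a difference of -0.08 (SE 0.05, limma adjusted p = 0.328). Vegfd, the closest relative of Vegfc, had a log2 FC of 0.36 (SE 0.10, limma adjusted p = 0.0385). Ctsd, which encodes cathepsin D, and Furin, a proprotein convertase, had log2 FCs of 0.19 and 0.16 (limma adjusted p = 0.0231 and 0.0289). These 3 calls were thin. None of them passed without NME replicate 1, AGR replicate 1 or AGR replicate 3, and only 1 passed without NME replicate 2 or without NME replicate 3. Adamts2 was not analysed here.

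Flt1 went the opposite way to Flt4. Its intensities were 280.2, 327.0 and 303.8 on the AGR arrays, against 459.4, 459.4 and 529.7 on the NME arrays. Every AGR array was below every NME array, and NME replicates 1 and 2 had exactly equal values. The log2 means of 8.24 ± 0.11 in AGR cells and 8.91 ± 0.12 in NME cells (SD, n = 3 each) gave a log2 FC of -0.67 (SE 0.08), so that the AGR level was 62.9% of the NME level. The call was kept under the 15 alternatives, with log2 FCs from -0.72 to -0.60.

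Kdr, the receptor gene through which most VEGF-A signaling in vessels runs, was low in both lines. Its intensity was 94.9, 93.8 and 94.9 in AGR cells, against 94.9, 110.5 and 94.9 in NME cells. The same value thus appeared on 4 of the 6 arrays and the lines overlapped, with NME replicate 2 the single higher array. The log2 means were 6.56 ± 0.01 in AGR cells and 6.64 ± 0.13 in NME cells (SD, n = 3 each), within the range that 90% of the olfactory receptor genes occupied. The log2 FC was -0.08, with a 95% interval of -0.24 to 0.08. At such a signal, a difference in the Kdr transcript may not be detectable.

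The start region of Flt4 is shown because it had the largest difference of the receptor genes. The sequence is the 250 bases before the annotated start from RefSeq (GRCm38.p6), 5′ to 3′ on the strand of the gene. Capitals mark GC boxes (GGGCGG or its complement CCGCCC), and the cyclic AMP response element TGACGTCA and the hypoxia response element core ACGTG or CACGT were searched on both strands as well.
Flt4, chr11:49609429-49609678, plus strand: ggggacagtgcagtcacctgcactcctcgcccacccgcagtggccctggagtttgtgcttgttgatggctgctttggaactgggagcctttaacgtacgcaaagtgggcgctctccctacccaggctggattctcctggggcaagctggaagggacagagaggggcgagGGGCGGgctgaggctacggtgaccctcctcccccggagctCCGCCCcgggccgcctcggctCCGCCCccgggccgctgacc
This window and the window of Flt1 held 3 GC boxes each, a motif found in 32.7% of the 32851 windows of this length in the table. The window of Flt1 also held the palindrome TGACGTCA, found in 1.55% of all windows, and the window of Flt4 did not. Unlike the Flt4 window, that of Flt1, chr5:147726012-147726261, lies inside the annotated span of its gene, which reaches 147726438 on the minus strand. Neither window held the hypoxia response element core, which 16.6% of all windows contained. A match describes letters only, and no factor was measured at these sites. Of the 8 genes 7 had a window in the table, and Ccbe1 was the exception.

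Among the remaining ligand genes, Vegfa was the only one that was lower in AGR cells. Its intensities were 3386, 4625 and 3907 in AGR cells, against 5416, 5671 and 5549 in NME cells. All 3 AGR arrays were below the NME arrays, but they were spread widely, with AGR replicate 2 the nearest to the parental level. The log2 means were 11.94 ± 0.23 in AGR cells and 12.44 ± 0.03 in NME cells (SD, n = 3 each), and the log2 FC was -0.49 (SE 0.11), or 71.1% of the NME level. Vegfa thus remained a bright gene in both lines. The call was lost without NME replicate 1, 2 or 3 and without AGR replicate 3. With any of these arrays left out, the share of all genes called was also lower, at 17.3% to 19.7%, beside 24.2% with all arrays. The log2 FC of Vegfa was between -0.61 and -0.38 whichever array was left out.

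Vegfb, whose product binds VEGFR1, had intensities of 2241, 1877 and 2177 in AGR cells, against 1872, 1752 and 1834 in NME cells. The lines did not overlap, but AGR replicate 2 was only just above NME replicate 1. The log2 FC was 0.20, with a 95% interval of 0.02 to 0.38, and the gene was not called. Without AGR replicate 2 it was called, at a log2 FC of 0.28.

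Pgf had intensities of 187.2, 199.4 and 173.8 in AGR cells, against 156.7, 168.7 and 154.3 in NME cells. The AGR values were all higher, by a small margin between AGR replicate 3 and NME replicate 2. The log2 FC was 0.22 (SE 0.07), or 1.17-fold, near the limit of what was called. It was called without AGR replicate 3 and lost without any other single array, with log2 FCs of 0.18 to 0.27. In NME cells its mean, 7.32, was near the 95th percentile of the olfactory receptor genes.

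**Figure D2:**
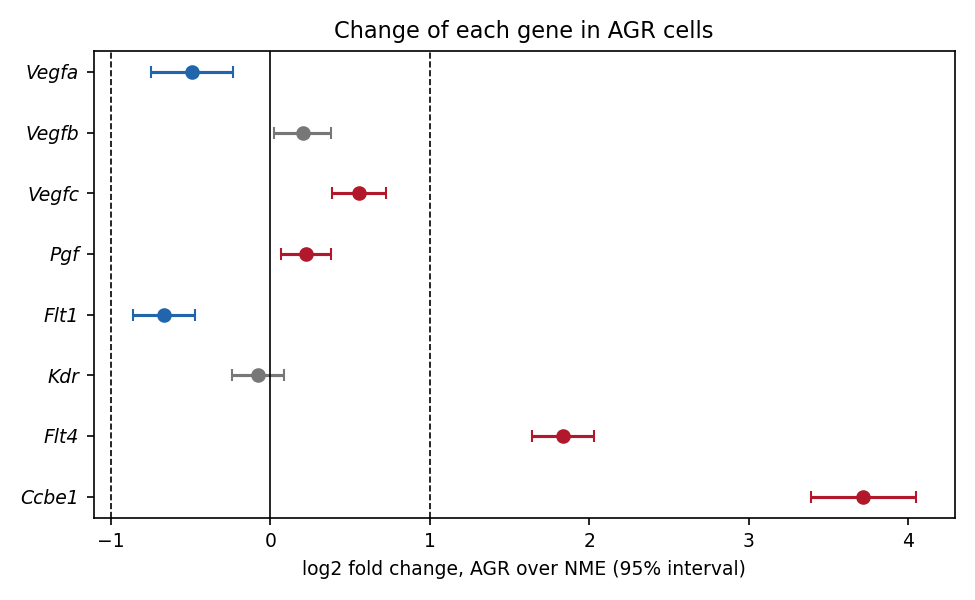
Log2 fold change of AGR over NME (x axis) of each gene with its 95% interval from limma; red points were called higher, blue points lower and gray points not called, and dashed lines mark a fold change of 2 in either direction. Ccbe1 at 3.72 and Flt4 at 1.83 lie beyond the dashed line, whereas Vegfa, Vegfb, Vegfc, Pgf, Flt1 and Kdr lie between -0.67 and 0.55.

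The start regions of Vegfc and Vegfa are shown as the ligand genes with the largest difference in each direction, with capitals as for Flt4.
Vegfc, chr8:54077282-54077531, plus strand: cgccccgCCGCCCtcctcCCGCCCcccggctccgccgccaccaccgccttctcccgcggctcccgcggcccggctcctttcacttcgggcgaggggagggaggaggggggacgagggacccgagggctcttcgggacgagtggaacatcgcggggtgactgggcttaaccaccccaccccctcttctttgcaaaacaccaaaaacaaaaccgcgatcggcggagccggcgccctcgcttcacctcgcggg
Vegfa, chr17:46032378-46032627, minus strand: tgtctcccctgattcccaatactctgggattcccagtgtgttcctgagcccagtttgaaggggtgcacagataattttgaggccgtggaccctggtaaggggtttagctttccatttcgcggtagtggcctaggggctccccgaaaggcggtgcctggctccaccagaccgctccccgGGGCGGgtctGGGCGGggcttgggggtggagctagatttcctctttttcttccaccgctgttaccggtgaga
Each of these windows held 2 GC boxes and neither of the other motifs. Sequence outside the windows was not searched, so a motif further from the start would be missed. A second annotated start of Vegfa, chr17:46025164-46025413, had 1 GC box and 1 hypoxia response element core in its window. The windows of Vegfb and Kdr held 4 and 2 GC boxes, and the windows of the 2 annotated starts of Pgf held 2 and 0. The windows of Kdr and Pgf lie inside the annotated spans of these genes.

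Neighbouring genes on the chromosome were then examined, with the 5 nearest measured genes on each side in the RefSeq order. The 10 neighbours of Ccbe1 on chromosome 18 had a median log2 FC of -0.01 and a highest value of 0.65, that of Pmaip1, and the 10 neighbours of Flt4 on chromosome 11 had a median of -0.04 and a highest value of 0.36, that of Mapk9. The differences of Ccbe1 and Flt4 were thus far outside the range of their surroundings. Flt1 lies on chromosome 5. Of its 10 neighbours 5 were called lower and 0 higher by limma, with a median log2 FC of -0.26 and a range from -0.65 to 0.11 (3 of 6 called lower with 3 neighbours on each side), where 11.6% of all genes were called lower. These 5 were Pdx1, Cdx2, Pan3, Pomp and Slc46a3, with log2 FCs of -0.65, -0.36, -0.23, -0.33 and -0.29. Flt3, a receptor gene among these neighbours, was at -0.01. Pdx1 was not called without NME replicate 1, and Pomp was not called without NME replicate 1 or 3. Whether the chromosomal surroundings play a part in the difference of Flt1 was not tested. Kdr also lies on chromosome 5, and of its 10 neighbours 3 were called lower and 1 higher by limma, with a median log2 FC of -0.06. Those called lower were Clock, Tmem165 and Srd5a3, at -0.67, -0.38 and -0.25. Kit and Pdgfra, relatives of the VEGF receptors, are also neighbours of Kdr, at -0.05 and 0.39 on the log2 scale, and Pdgfra was the one called higher.

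**Figure D3:**
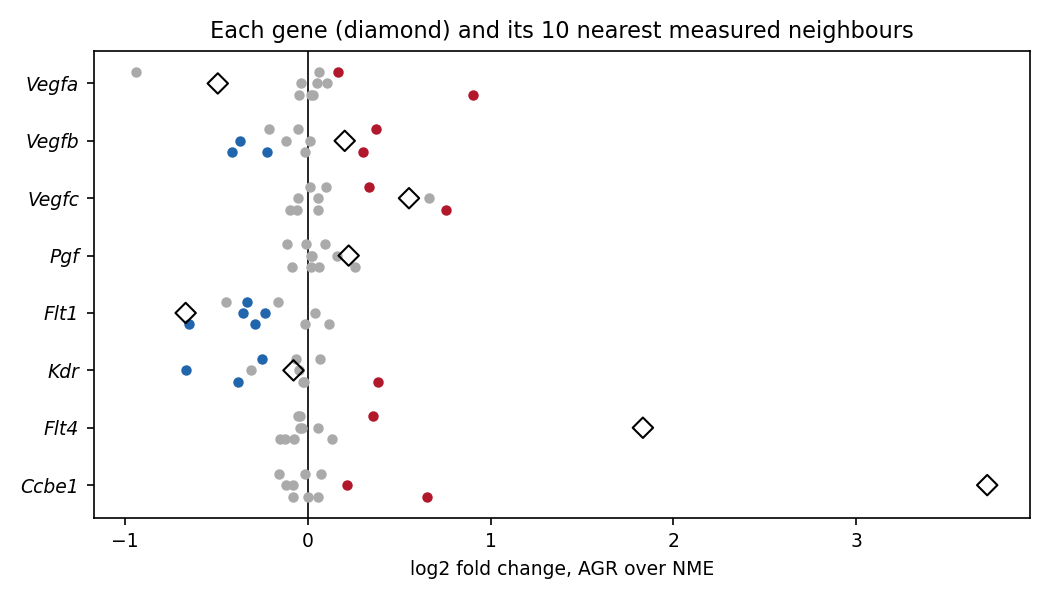
Log2 fold change of AGR over NME (x axis) of each gene (open diamond) and of its 10 nearest measured neighbours on the chromosome (points; red called higher, blue called lower, gray not called). Ccbe1 and Flt4 stand apart from neighbours with medians of -0.01 and -0.04, and the median of the neighbours of Flt1 was -0.26.

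Co-receptors and partner proteins bind VEGFs or their receptors at the cell surface. This list, too, was drawn up with earlier results of these data known, so its counts, median and p-values only describe the genes picked. Of 10 measured genes 5 were called higher and 1 lower, against 12.6% higher and 11.6% lower over all genes, with a median log2 FC of 0.55 beside -0.02 over all genes. Nrp1, the co-receptor of VEGF-A and of class 3 semaphorins, had log2 means of 10.98 ± 0.24 in AGR cells and 8.84 ± 0.22 in NME cells (SD, n = 3 each), a log2 FC of 2.15 (limma adjusted p = 1.33e-04). Nrp2, which also binds VEGF-C and associates with VEGFR3, averaged 10.24 ± 0.04 in AGR cells and 9.24 ± 0.03 in NME cells (SD, n = 3 each), a log2 FC of 1.00 (limma adjusted p = 1.66e-05). Gpc1, which encodes the heparan sulfate proteoglycan glypican-1, rose by 1.71, and Efnb2, which encodes ephrin-B2, a regulator of VEGF receptor uptake, rose by 1.25 on the log2 scale (limma adjusted p = 9.47e-06 and 3.2e-04). The same 4 calls were kept without any single array. Ptprj, a receptor phosphatase that acts on VEGFR2, was lower with -0.26 (limma adjusted p = 0.0327), a call that was kept only without AGR replicate 2.

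Genes for signaling below the VEGF receptors were called in both directions. Of 35 measured genes 9 were called higher and 6 lower, against 24.2% called in either direction over all genes, with a median log2 FC of 0.06. None of the 35 was called with a FC above 2, where 3.00% of all genes were. Pik3cb, a catalytic subunit of PI3 kinase, and Pla2g4a, the cytosolic phospholipase A2, had log2 FCs of 0.66 and 0.65 (limma adjusted p = 1.0e-04 and 7.58e-05). Nfatc2, a transcription factor activated by calcineurin, and Pik3r1, the regulatory subunit of PI3 kinase, had -0.64 and -0.56 (limma adjusted p = 1.5e-04 and 0.0021). Leaving out single arrays gave 6 to 10 genes higher and 3 to 5 lower, and the number lower was 3 without NME replicate 1 or 3.

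Genes known to respond to VEGF in endothelial cells were read next. Of 17 measured, 4 were called higher and 1 lower, against 12.6% higher and 11.6% lower over all genes, with a median log2 FC of -0.02, beside -0.02 over all genes. Nr4a2, an orphan nuclear receptor gene, rose by 1.15, Dll4, a Notch ligand gene, by 0.95, Dusp5, a dual-specificity phosphatase gene, by 0.85 and Apln, the gene for apelin, by 0.48 on the log2 scale (limma adjusted p = 9.86e-05, 0.00929, 0.00703 and 0.00784). Angpt2, which encodes angiopoietin-2, was lower with -0.35 (limma adjusted p = 0.0328), and this call was kept only without NME replicate 2. Of these 5 genes, 1 was called by the methods' t-test. Egr1, an immediate early gene, was at -0.23 (limma adjusted p = 0.361) and Esm1 at -0.02 (limma adjusted p = 0.949).

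Vegfa is a classical target of the hypoxia-inducible factors, so other genes of that response were examined. Of 20 measured genes for oxygen sensing and hypoxia targets, 7 were called lower and 1 higher, against 11.6% lower and 12.6% higher over all genes, with a median log2 FC of -0.21 beside -0.02 over all genes. Pdk1, the kinase gene that restrains pyruvate oxidation, had log2 means of 8.71 ± 0.40 in AGR cells and 10.38 ± 0.17 in NME cells (SD, n = 3 each), a log2 FC of -1.67 (limma adjusted p = 0.00122). Bnip3, a mitophagy receptor gene, had -1.42, Ddit4, an inhibitor of mTORC1, -0.71 and Egln3, an oxygen sensor, -0.59 (limma adjusted p = 0.0177, 2.95e-04 and 0.0176). The call of Bnip3 was lost without any one of the NME arrays, and that of Egln3 without NME replicate 1 or 3. Epas1, which encodes HIF-2α, was the gene that was higher, with 0.25 (limma adjusted p = 0.0277), kept only without AGR replicate 2. Hif1a was at -0.24 (limma adjusted p = 0.11), and Car9 and Adm at -0.12 and 0.02 (limma adjusted p = 0.12 and 0.935). Without NME replicate 1 or 3 the number of genes called lower was 4, and without AGR replicate 2 it was 10. Whether the difference of Vegfa is linked to this response was not tested.

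PDGF ligands and their receptors are relatives of the VEGF family. Of 9 measured genes for PDGF ligands and related receptors 4 were called higher and 1 lower, against 12.6% higher and 11.6% lower over all genes, with a median log2 FC of 0.00. Pdgfb had a log2 FC of 0.87, Pdgfa of 0.46, Pdgfra of 0.39 and Csf1r of 0.28 (limma adjusted p = 0.00154, 6.27e-04, 0.00824 and 0.0329). Pdgfd was lower with -0.43 (limma adjusted p = 0.0108) at log2 means of 5.87 in AGR cells and 6.30 in NME cells, within the range of 90% of the olfactory receptor genes. The call of Csf1r was kept only without AGR replicate 2, and that of Pdgfd was lost without NME replicate 1 or 3. Among 6 measured genes for angiopoietins and Tie receptors, Angpt2 was the single call, with 0 genes higher by limma, 0 higher at an unadjusted p under 0.05 and 0 called by the methods' t-test.

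A further list held genes for proteins that bind VEGF or are linked to the control of vessel growth, most of them known to oppose it. Of 9 measured genes 5 were called higher and 0 lower by limma, against 12.6% higher and 11.6% lower over all genes, with 0 lower at an unadjusted p under 0.05, 4 called by the methods' t-test and a median log2 FC of 0.40. Thbs1, which encodes thrombospondin-1, had a log2 FC of 3.40 and Ccn2, whose product binds VEGF-A, of 0.93 (limma adjusted p = 1.83e-06 and 5.71e-04). The log2 FC was 0.71 for Vash2, which encodes vasohibin-2 and is known to promote vessel growth, unlike the related Vash1, 0.44 for Col18a1, the precursor gene of endostatin, and 0.40 for Hspg2, which encodes perlecan (limma adjusted p = 9.32e-04, 9.31e-04 and 0.0088). These 5 calls were kept without any single array. Thbs2, Serpinf1, Pf4 and Sparc were not called, at log2 FCs of 0.09, 0.12, -0.12 and 0.01. Of these, Thbs2, Serpinf1 and Pf4 were dimmer than the median of all probe sets in both lines.

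**Figure D4:**
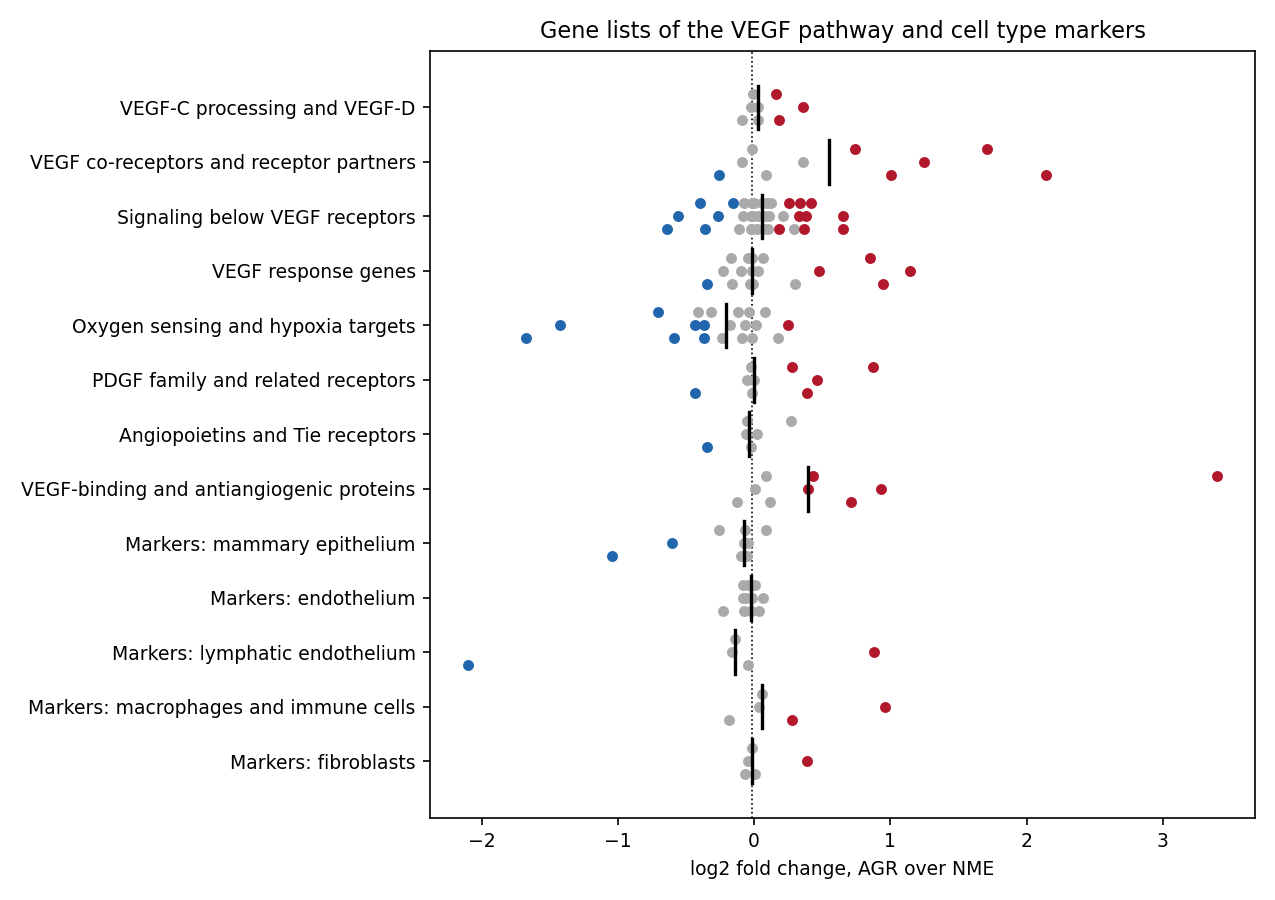
Log2 fold change of AGR over NME (x axis) of the measured genes of each list (points; red called higher, blue called lower, gray not called), with the list median as a black line and the median of all genes, -0.02, as a dotted line. The median was 0.55 for VEGF co-receptors and receptor partners and -0.21 for oxygen sensing and hypoxia targets, and the endothelial markers held no call.

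Since Flt1, Kdr and Flt4 are best known from endothelium, markers of endothelial cells were read as well. Of 14 measured markers 0 were called in either direction by limma, 1 was lower at an unadjusted p under 0.05 and 0 were called by the methods' t-test. Over all genes limma called 12.6% higher, 11.6% lower and 24.2% in either direction. In both lines 10 of the 14 were dimmer than 7.61, the median log2 intensity over all probe sets. The 4 brighter ones were Vwf at 7.96 in AGR cells and 7.98 in NME cells, Tie1 at 7.85 in AGR cells and 7.87 in NME cells, Cldn5 at 7.83 in AGR cells and 7.86 in NME cells, and Egfl7 at 8.52 in AGR cells and 8.75 in NME cells. Among the dimmer ones, Pecam1 was at 6.82 in AGR cells and 6.87 in NME cells, Cdh5 at 7.23 in AGR cells and 7.24 in NME cells, Tek at 6.43 in AGR cells and 6.49 in NME cells, and Emcn at 5.88 in AGR cells and 5.81 in NME cells. The summed intensity of the list was 2282 to 2426 on the AGR arrays and 2424 to 2532 on the NME arrays. As most of these markers were dim, such a sum may not show a small share of endothelial cells. Of 5 markers of lymphatic endothelium, 1 was called higher and 1 lower. Prox1, the transcription factor gene that specifies lymphatic identity and activates Flt4 in those cells, averaged 6.98 ± 0.22 in AGR cells and 9.08 ± 0.15 in NME cells (SD, n = 3 each), a log2 FC of -2.10 (limma adjusted p = 6.21e-05). The AGR mean of Prox1 was below 7.23, the 95th percentile of the olfactory receptor genes in AGR cells, so the size of this difference is uncertain. Nr2f2, a partner of Prox1 also known as COUP-TFII, was higher with a log2 FC of 0.88 (limma adjusted p = 0.00102). Lyve1 was at 6.56 in AGR cells and 6.70 in NME cells. Flt4 was higher and Prox1 lower in AGR cells, and a link between them was not tested.

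The mammary epithelial identity of the lines was checked in the same way. Krt8 and Krt18, keratins of luminal epithelium, were bright in both lines, with log2 means of 14.13 and 13.58 in AGR cells and 14.23 and 13.63 in NME cells. Epcam and Esrp1 were dim in both, at 6.51 and 6.36 in AGR cells and 6.58 and 6.41 in NME cells. Of the 9 epithelial markers 2 were called lower, Krt19 and Cdh1, and 0 higher by limma, with 0 higher at an unadjusted p under 0.05 and 2 called by the methods' t-test. Krt19 had a log2 FC of -1.04 and Cdh1 of -0.60 (limma adjusted p = 1.4e-05 and 4.67e-04). For this list and the immune and fibroblast lists, the shares over all genes were 12.6% higher and 11.6% lower. Of 5 immune cell markers, Cd68 and Csf1r were called higher with log2 FCs of 0.96 and 0.28, whereas Ptprc, the defining one, was at 7.14 in AGR cells and 7.08 in NME cells. Itgam had a log2 FC of -0.18 and was not called, and Adgre1 was at 5.99 in AGR cells and 5.95 in NME cells. The summed intensity of the immune list was 1003 to 1044 on the AGR arrays and 715.9 to 777.3 on the NME arrays. Cd68 was the brightest of the 5 in both lines, at log2 means of 8.93 in AGR cells and 7.96 in NME cells. It therefore weighs most in this sum. Pdgfra was the single fibroblast marker of 5 that was called, and the sums of that list overlapped, at 1121 to 1167 on the AGR arrays and 1060 to 1162 on the NME arrays. The part of these markers in the differences of the VEGF genes was not tested.

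Finally, the genes whose profile over the 6 arrays was most like that of Ccbe1 or Flt4 were listed, by the root mean square difference of log2 profiles centred on their means. For Ccbe1 these were Lce1h, at a difference of 0.15, Lce1g at 0.20 and Ptpn22 at 0.23. Lce1h and Lce1g belong to the late cornified envelope genes, a family of similar genes whose transcripts may share probes. For Flt4 they were Cryab, which encodes αB-crystallin, at 0.07, Gja1, which encodes connexin 43, at 0.07 and Rnf157 at 0.08. After quantile normalization the 3 genes nearest to Ccbe1 stayed the same, and 2 of the 3 nearest to Flt4 did, with Il18rap in place of Gja1. The log2 FCs of the genes nearest to Flt4 were 1.81, 1.85 and 1.73 for Cryab, Gja1 and Rnf157, beside 1.83 for Flt4 itself. As the profiles include the difference between the lines, similar log2 FCs follow from the way these genes were picked.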

How the data were processed

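Arrays of AGR cells (3) and NME cells (3) were grouped by sample title. The authors deposited 1 intensity per probe set on a linear scale. The submitters' processing notes name MAS5, with no version or settings. That method uses mismatch probes, which this array type lacks, so the normalization is unknown. The genome build is not given in the sources used here. Deposited intensities were converted to log2 values without an offset. Symbols were those of the platform annotation, and only probe sets with a single symbol were used, the brightest one standing for its gene. The lines were compared in limma 3.58.1 (R 4.3.3), using moderated variances and Benjamini-Hochberg adjusted p-values across 19938 genes, after a check on simulated data. An exact permutation test of 3 against 3 arrays could not go below p = 0.1, and so few arrays limit the precision.

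The genes and gene lists were chosen with earlier results of these data known. The rule for names took the 8 genes, Nrp1, Nrp2 and Vegfd, all called genes of a list with 5 or fewer calls, otherwise the 4 largest and up to 2 in the other direction, and the 3 nearest genes by profile. Other genes, among them Adamts3, Egr1, Esm1, Hif1a, Car9, Adm, the markers without a call and the neighbours on the chromosome, were named after their values were seen. Promoter sequences are RefSeq's, of GRCm38.p6. Alternatives were quantile normalization, median centring, 2 filters on dim genes, averaging a gene's probe sets, trended and robust variance moderation, the methods' t-test (two-sided, equal variance), an offset of 16, the replicate number as a block, unadjusted p-values, and the omission of each array.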

Additional observations from a re-analysis of the deposited data

How the results depend on the processing

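The 118 recomputed log2 FCs of the 8 genes held no reversal, and 106 of them stayed on their side of the threshold. The number of genes called higher was 3 to 4 and the number called lower 1 to 2 when single arrays were left out, and Ccbe1 and Flt4 were called with a FC above 2 in each of these settings. With the methods' t-test 3 genes were higher and 1 was lower, as Vegfa and Pgf were lost. With a filter on dim genes at the median of all probe sets, Pgf and Kdr were no longer among the genes tested. The deviations of arrays with the same replicate number had correlations of -0.13, 0.33 and 0.26. Those of arrays with different numbers ranged from -0.47 to 0.36. Whether the numbers mark a pairing is not known from these values. Used as a block, the replicate number left 4 genes higher and 2 lower. For the lists, 47 of 240 recomputed counts moved by more than 1.5 times, 0 of them for the 5 called VEGF-binding and antiangiogenic proteins. With the block 1 gene of the VEGF-C processing list was higher, and 0 co-receptor genes were lower. The methods' t-test found 1 higher gene among the VEGF response genes. The cause of these shifts was not tested. Centring the arrays on their medians left 0 genes lower among the co-receptors, the VEGF response genes and the angiopoietins. Over all genes, 262 to 347 were called higher with a FC above 2 and 271 to 321 lower. The share of all genes called was 17.3% to 26.9% when single arrays were left out, beside 24.2% with all arrays. Signal near background limits what can be said of Kdr, Pgf, Pdgfd, Vegfc in NME cells and Prox1 in AGR cells.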
